A study of Mus musculus with 62 samples.

Results

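Regular running remodels skeletal muscle, and the hyperacetylated exercise-modified regions (EMRs) are the parts of the genome where quadriceps of exercised mice carried more acetylated lysine 27 of histone H3 (H3K27ac) than quadriceps of sedentary mice. The authors listed 382 of them, against 2280 hypoacetylated EMRs where the mark was lower, out of 43743 regions that carried H3K27ac in the sedentary (Sed) or the exercised (Ex) quadriceps and 80202 regions marked by H3K27ac or by dimethylated lysine 4 of histone H3 (H3K4me2) anywhere in the series. The 382 regions were chosen on their H3K27ac values in 2 Sed and 2 Ex libraries, by at least 2-fold at a false discovery rate of 0.05. Their levels in those 4 libraries are therefore a description and carry no test.

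H3K27ac is deposited by histone acetyltransferases at active enhancers and promoters, the sequences from which transcription factors raise the output of genes nearby or far away. H3K4me2 marks enhancers and promoters whether or not they are active, so a site can hold it before and after H3K27ac comes and goes. Accessible chromatin, measured by the assay for transposase-accessible chromatin (ATAC), is where proteins other than nucleosomes reach the DNA. In muscle, contraction is known to induce early response genes such as the Fos and Jun families, whose products pair as the AP-1 factor, and training is known to remodel the blood vessels and matrix around the fibers as well as the fibers themselves.

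All samples were mouse muscles labelled C57BL/6, and the study's methods describe the animals as males, in young adulthood where they give an age. Sed and Ex were quadriceps of wild-type mice housed without or with a wheel on which they ran at will for several weeks, the runners being taken within hours of their last bout. A further 4 groups were muscles of sedentary wild-type mice, namely the quadriceps (Quad) and the extensor digitorum longus (EDL), which are rich in glycolytic fibers, and the soleus (Sol) and the diaphragm (Dia), which are rich in oxidative fibers. The mTg group, PGC1a Tg(+), was sedentary quadriceps in which the muscle creatine kinase promoter drove the coactivator gene Pgc1a, and Wt was sedentary quadriceps of wild-type littermates. Each of these 8 groups had 2 H3K27ac and 2 H3K4me2 libraries. By the study's methods a quadriceps library came from 1 animal, and an EDL, Sol or Dia library pooled several animals. Chromatin came from whole muscle, so a change in the mark within a cell type and a change in the share of nuclei of that cell type cannot be told apart. The 4 H3K27ac libraries behind the list held 23.66 and 20.74 M tags for Sed and 18.55 and 17.15 M for Ex, where tags are mapped reads left after duplicates were removed.

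The sequences of 3 of the regions stand here, because each leads 1 of the ways in which regions were singled out for naming: the largest difference between Ex and Sed, the largest difference among promoters, and the largest difference among regions that also differed in mTg muscle. They were read from the reference GRCm38.p6 (mm10) and run 5′ to 3′ on the plus strand, with transcription factor words in capitals. The Eps8l1 window, chr7:4461334-4461633, is the middle of its region and holds a TEAD word at base 73, a nuclear receptor half-site at base 275 and a CCAAT word at base 284, counted from 1 at the left end. The Islr2 window, chr9:58204656-58204955, is centred on an ATAC peak and holds nuclear receptor half-sites at bases 22 and 197, the second inside a word of the estrogen-related receptor (ERR). The Slc8a1 window, chr17:81403943-81404242, is the middle of its region and holds an AP-1 word at base 164. All 3 windows lie in introns of the reference gene models, of Eps8l1, of the non-coding gene 1600029O15Rik and of Slc8a1.

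Eps8l1: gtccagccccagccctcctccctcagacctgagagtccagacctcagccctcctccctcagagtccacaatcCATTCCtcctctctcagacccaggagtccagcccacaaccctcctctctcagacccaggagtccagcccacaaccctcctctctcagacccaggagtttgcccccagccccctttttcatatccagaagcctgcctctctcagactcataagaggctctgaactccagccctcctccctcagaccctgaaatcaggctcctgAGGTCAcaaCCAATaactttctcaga
Islr2: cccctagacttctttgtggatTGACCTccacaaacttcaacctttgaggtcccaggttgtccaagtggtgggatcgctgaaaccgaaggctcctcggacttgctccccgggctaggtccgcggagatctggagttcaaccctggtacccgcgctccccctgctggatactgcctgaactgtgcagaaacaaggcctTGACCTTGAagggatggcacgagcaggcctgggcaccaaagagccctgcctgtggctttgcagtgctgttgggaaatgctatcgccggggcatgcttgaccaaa
Slc8a1: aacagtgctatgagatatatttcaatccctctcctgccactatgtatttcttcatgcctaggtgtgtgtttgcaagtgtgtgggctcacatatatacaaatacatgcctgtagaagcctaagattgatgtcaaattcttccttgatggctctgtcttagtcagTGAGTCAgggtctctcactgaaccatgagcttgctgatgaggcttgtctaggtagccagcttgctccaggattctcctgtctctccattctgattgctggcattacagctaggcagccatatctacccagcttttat

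The hyperacetylated EMRs were distal elements. By the deposited annotation 223 of 382 were intergenic (58.4%), 141 lay in introns (36.9%) and 9 at promoters (2.36%), the last meaning from 1 kb before to 100 bp after a transcription start site (TSS). The remaining 9 regions fell in exons and UTRs. Among all 43743 Sed and Ex regions 31.4% were intergenic and 11.6% were promoters. The hypoacetylated EMRs shared the scarcity of promoters (1.32%) but were mostly intronic (59.3%), with 33.9% between genes. Placing the centre of each region against the reference gene models instead gave 212 intergenic regions and 10 promoters.

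The median distance from the centre of a hyperacetylated EMR to the nearest TSS was 39164 bp, against 25674.5 bp for hypoacetylated EMRs and 15454 bp for all Sed and Ex regions. Only 73 regions (19.1%) were centred within 10 kb of a TSS and 283 (74.1%) within 100 kb. Naming a region by its nearest gene is thus a label and not a measured target. Regions were 501 to 8122 bp wide with a median of 1721.5 bp, close to the 1683 bp of the Sed and Ex regions at large and below the 2688.5 bp of hypoacetylated EMRs. Their centre lay in an annotated repeat in 16.5% of cases.

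**Figure D1:**
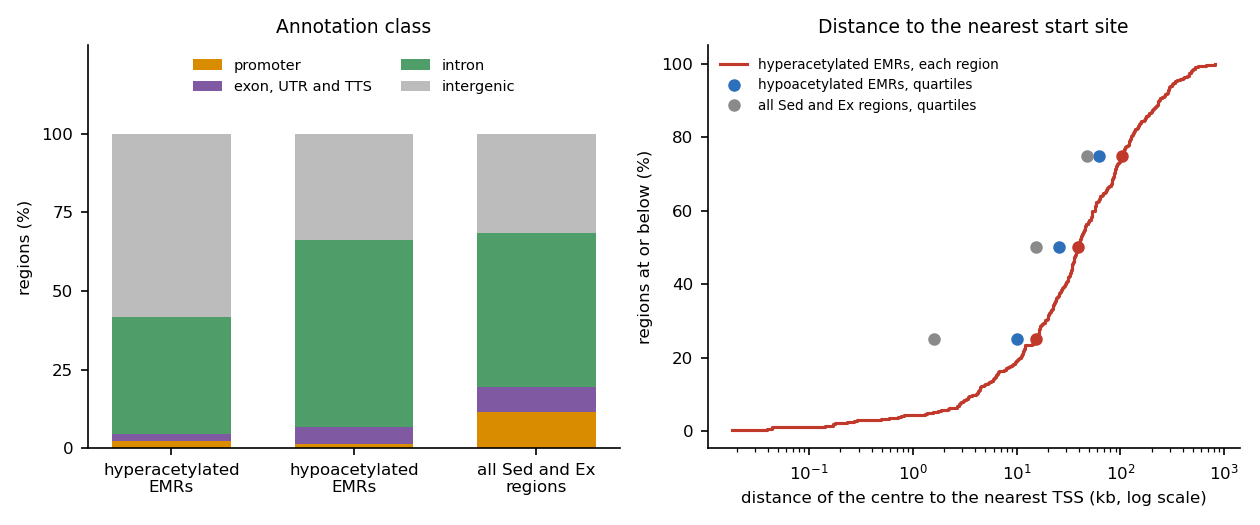
Left, share of regions (%) in each annotation class for the 382 hyperacetylated EMRs, the 2280 hypoacetylated EMRs and all 43743 Sed and Ex regions. Right, cumulative share of hyperacetylated EMRs by distance of their centre to the nearest TSS (kb, log scale), with the quartiles of the 3 sets as points. Hyperacetylated EMRs were 58.4% intergenic and sat farther from start sites than both other sets, with a median of 39164 bp.

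The levels in the 4 libraries that chose the regions were low and close together. Levels are the deposited log2 values over the whole region, which shrink differences of weak regions and grow with width. The median level was 5.53 and 5.61 in the Sed libraries and 6.07 and 6.33 in the Ex libraries. The difference of the group means, Ex minus Sed, had a median of 0.59, quartiles of 0.53 and 0.67 and a range of 0.32 to 1.08. A single region was over 1 apart on this scale. In all 382 regions both Ex libraries lay above both Sed libraries, as their choice requires, and the median gap between the lower Ex and the higher Sed library was 0.42. The Ex libraries differed from each other, Ex replicate 2 being the higher in 329 of 382 regions by a median of 0.22, whereas Sed replicate 2 was the higher in 237 by a median of 0.037. With Ex replicate 1 or 2 left out, the median difference was 0.71 or 0.48.

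**Figure D2:**
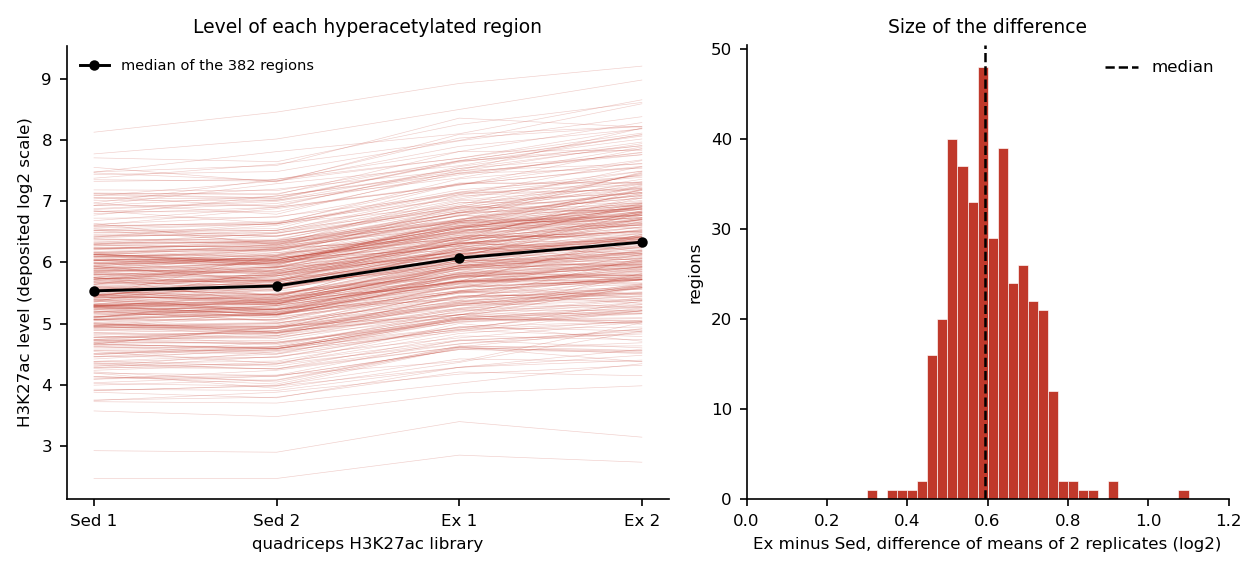
Left, deposited H3K27ac level (log2) of each of the 382 hyperacetylated EMRs in the 2 Sed and 2 Ex quadriceps libraries, 1 thin line a region, with the median of each library in black. Right, number of regions by the Ex minus Sed difference of group means (log2), with the median as a dashed line. Medians were 5.53, 5.61, 6.07 and 6.33, and most differences lay between 0.5 and 0.8.

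For comparison, hypoacetylated EMRs started from a median level of 7.58 and 7.31 in Sed and differed by a median of -0.76. The smallest difference on this scale was at the region nearest to Speer4f1 (chr5:17330539-17331039). It had levels of 2.47 and 2.47 in Sed and 2.85 and 2.73 in Ex, a difference of 0.32. The next, nearest to Lrrc4, had a difference of 0.36. Both were the weakest regions of the list in all 4 libraries. The scale shrinks differences of weak regions, so how near they lay to the authors' threshold is not shown. Regions just outside the threshold were not analysed here.

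The peak lists give the same libraries on another scale, with each list normalized separately. Levels there were taken per kb and centred on the median of all regions called in both lists with a reciprocal overlap of 50%. Only 33 of the 382 regions had such a partner in the Sed list, and their median difference was 1.01. All 33 had higher levels in both Ex libraries, against 31.1% of the 18430 shared regions, and 0 had lower levels in both, against 25.7%. A difference over 2-fold was seen in 19 regions upward, against 1.00% of shared regions, and in 0 downward, against 1.92%. These are the libraries that chose the regions, so the counts only describe them.

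The region with the largest difference lay at Eps8l1 (chr7:4460782-4462184), a gene related to the actin regulator Eps8, and held the first sequence printed above. Its levels were 5.46 and 6.11 in the Sed libraries and 6.91 and 6.81 in the Ex libraries, a difference of 1.08. The deposited annotation called it intergenic at 3252 bp before the TSS, whereas the reference placed its centre inside a longer Eps8l1 transcript. It was called with H3K27ac in each group except Sed, and with H3K4me2 in each group except Sed and mTg. The Sed replicates were farther apart here (SD 0.466, n = 2) than the Ex replicates (SD 0.0709, n = 2).

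Further along the list came a region nearest to 1700129C05Rik (chr14:59044200-59046239), with levels of 5.65 and 5.71 in Sed and 6.39 and 6.79 in Ex. A region nearest to 1700084J12Rik (chr15:33483254-33485567), which lies in an intron of the peptidase gene Cpq, had 5.72 and 5.91 in Sed and 6.56 and 6.88 in Ex. Both differed by 0.91. The region in Slc8a1 (chr17:81403237-81404947), the gene of the plasma membrane sodium-calcium exchanger, had 6.03 and 5.95 in Sed and 6.71 and 7.01 in Ex, a difference of 0.87. It lay 334295 bp downstream of the TSS and is the source of the third sequence above.

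A broad region before Galnt15 (chr14:32011041-32017208), which encodes an enzyme that starts O-linked glycans on secreted proteins, had 7.77 and 8.02 in Sed and 8.50 and 8.98 in Ex. Despite that level it was absent from the Sed list and present in the H3K27ac lists of the other 7 groups, and it met no H3K4me2 peak in any group. The region in the integrin-like gene Itgbl1 (chr14:123659409-123665359) was also called in every H3K27ac list but that of Sed, with 7.37 and 7.60 in Sed and 7.99 and 8.59 in Ex, and it was called with H3K4me2 in each group except Ex. Differences were 0.84 for Galnt15 and 0.80 for Itgbl1.

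The highest Ex levels belonged to wide regions. The widest, nearest to BC022687 and inside Ahnak2 in the reference (chr12:112792983-112801104), had 8.13 and 8.45 in Sed and 8.92 and 9.21 in Ex. The intronic region of the splicing regulator Celf2 (chr2:7059649-7063036) had 7.71 and 7.64 in Sed and 8.25 and 8.61 in Ex. That of Apbb1ip (chr2:22809074-22816103), an adaptor between the GTPase Rap1 and integrin activation in leukocytes, had 7.47 and 7.81 in Sed and 8.10 and 8.66 in Ex. Differences were 0.77, 0.76 and 0.74.

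The remaining regions among the 12 with the largest differences had values between 0.77 and 0.81. They were nearest to Mtdh, Col5a1, Ptchd3, Kcns2, which encodes a modulatory potassium channel subunit, and Antxr2, a cell surface receptor for matrix proteins. The Kcns2 region lay in an intron of the kinase gene Stk3. Ranked by input per kb among all regions of the Ex list, the 12 stood between percentiles 18.1 and 72.3.

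The 9 promoters were spread over genes of varied function. Islr2, a membrane protein with leucine-rich repeats, had the largest difference among them (0.75), with 7.48 and 7.58 in Sed and 8.36 and 8.21 in Ex. It carried H3K4me2 in each group except Ex, and it held an ATAC peak, whose centre is the middle of the second sequence above. 1810008I18Rik had 6.93 and 7.28 in Sed and 7.58 and 8.09 in Ex. Ptgs2os2, a non-coding transcript beside the cyclooxygenase gene Ptgs2, had 6.42 and 6.49 in Sed and 7.09 and 7.21 in Ex.

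The promoter of Col8a1, a collagen chain of vessel walls, had 6.77 and 7.09 in Sed and 7.45 and 7.79 in Ex. It was called in all 8 groups for both marks. The promoter of the secreted signal Wnt2 had 5.35 and 5.88 in Sed and 6.15 and 6.37 in Ex, and was called with H3K27ac in Ex and Dia alone while H3K4me2 was called in all 8 groups. That of the monocyte chemokine gene Ccl8 was called with H3K27ac in Wt, Sol, Ex and mTg and with H3K4me2 in no group, and had levels of 6.15 and 6.10 in Sed and 6.56 and 6.95 in Ex. The others were Mir5617, Qprt, an enzyme of NAD synthesis, and P2ry13, a receptor for ADP, with differences of 0.71, 0.59 and 0.57. At none of the 9 promoters did the Sed and Ex libraries overlap, as the choice requires.

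The 382 regions were nearest to 347 different genes, of which 24 were nearest to 2 regions and 4 to more. Col8a1 was nearest to 5 regions between its promoter and 68290 bp downstream of it, with differences from 0.46 to 0.73. A sixth region in Col8a1, assigned to Cmss1 by distance, lay inside the gene in the reference. Apbb1ip was nearest to 4 regions with differences from 0.50 to 0.74. Cenpf, a kinetochore protein of dividing cells, and Cyp1b1, a cytochrome P450, were nearest to 3 each, with 0.50 to 0.68 and 0.60 to 0.67. Of the 382 regions, 83 had another within 100 kb, and the median distance to the next was 1225917 bp. The same values were not computed for sets of equal size drawn from all regions.

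The gene lists used for naming covered muscle function, signaling and the other tissues of muscle, and met few of the regions. None of the 382 was nearest to a gene of the sarcomere list (49 genes), calcium handling (24), oxidative metabolism (50), glucose metabolism (34), growth and atrophy (25) or the circadian clock (20). The same 6 lists were nearest to 0.418%, 0.263%, 0.4001%, 0.4001%, 0.267% and 0.217% of all Sed and Ex regions. A count of 0 among 382 regions is near such a background. Over all 13 lists the share was 4.45% (17 of 382), against 4.88% of the Sed and Ex regions at large and 8.38% of hypoacetylated EMRs. This total mixes the 6 lists at 0 with lists above, near and below their background, so it describes no single list.

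Extracellular matrix genes were nearest to 5 regions (1.31%, against 0.597% of all regions). For Col5a1 and Col5a2, the chains of fibrillar collagen V, the differences were 0.78 and 0.64 at 2 regions before Col5a1 and 0.52 before Col5a2. The region before Col5a1 with the larger value had 6.97 and 7.36 in Sed and 7.70 and 8.19 in Ex and was called in all 8 H3K27ac lists. Fbn1, the microfibril protein fibrillin, had 5.19 and 5.24 in Sed and 5.78 and 5.75 in Ex. Col1a2, a chain of fibrillar collagen I, had 5.26 and 5.23 in Sed and 5.60 and 5.93 in Ex at a region 155574 bp away.

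Factors of development and precursor cells were nearest to 4 regions (1.05%, against 0.267%). Sox11, a factor of progenitor cells, had 5.38 and 5.43 in Sed and 6.26 and 6.03 in Ex. Twist2, a factor of mesenchymal cells, had 6.97 and 6.79 in Sed and 7.50 and 7.61 in Ex. For the homeobox gene Meox1 and the zinc finger gene Osr2 the differences were 0.57 and 0.54.

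The immune list was represented by Ccl8 and by Ccr2, a chemokine receptor of monocytes, whose intronic region had 5.54 and 5.43 in Sed and 5.91 and 6.31 in Ex. Apln, which encodes the vessel-active peptide apelin, was nearest to 2 regions with differences of 0.62 and 0.58, and no other gene of the angiogenesis list was. From the early response list came Klf4 and Btg1, with 0.60 and 0.50. Musk, the receptor kinase that organizes the neuromuscular junction, had 5.63 and 5.77 in Sed and 6.18 and 6.38 in Ex, and Nfia a difference of 0.51. Early response genes were nearest to 0.524% of members and to 0.526% in the background of 43743 regions. That background gave 0.896% for muscle regulatory factors, the list of Nfia, where members had 0.262%. Members exceeded it for immune genes (0.524% over 0.272%), angiogenesis (0.524% over 0.322%) and the neuromuscular junction (0.262% over 0.105%). None of the 13 gene lists was nearest to more than 5 of the 382 regions.

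Marker genes of other cell types differed between the Sed and Ex lists. The 6 fibroblast markers took 0.363 and 0.475 per mille of the list signal in the Sed libraries and 1.01 and 1.32 in the Ex libraries, with Lum unmarked in Sed. The 6 macrophage and leukocyte markers took 0.163 and 0.176 in Sed and 0.271 and 0.318 in Ex, with Cd68 unmarked in Sed, and the 6 endothelial markers 0.720 and 0.716 in Sed and 0.978 and 0.980 in Ex. The 8 muscle fiber markers took 2.05 and 1.69 in Sed and 1.14 and 0.956 in Ex. At regions called in both lists, the Ex minus Sed median was 0.50 for fibroblast markers (12 of 12 regions above 0), 0.49 for macrophages (6 of 7) and -0.43 for muscle fibers (0 of 7). Over all 18430 shared regions the median was 0.046, with 10031 above 0. It was 0.072 for endothelial markers (13 of 22), and smooth muscle markers took 0.110 and 0.108 per mille in Sed and 0.0655 and 0.0718 in Ex. Among the satellite cell markers, 2 of 4 had a region in Ex and 3 of 4 in Sed. They took 0.2066 and 0.1973 per mille in Sed and 0.1448 and 0.1478 in Ex. Adipocyte markers took 0.1393 and 0.1485 in Sed and 0.1785 and 0.2207 in Ex, with a median difference of 0.012 at shared regions. Schwann cell markers had 1 region in Sed and 2 in Ex. Of the 8 marker lists, 1 gene was nearest to a hyperacetylated EMR, the fibroblast marker Col1a2. Whether these marker shifts take part in the differences at the 382 regions was not tested. From qPCR of marker genes, which measures RNA and not the mark, the study reported an unchanged cell composition of Ex muscle.

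The other muscles showed how often the regions carried H3K27ac without running. A region counts as marked when it meets a peak of the list by at least 1 bp, and each list was called over both replicates. Sed quadriceps marked 59 of 382 regions (15.4%), Quad 188 (49.2%) and Wt 227 (59.4%), although all 3 were sedentary wild-type quadriceps. All Sed and Ex regions met the same lists in 79.1%, 73.7% and 77.7% of cases. The Sed list entered the choice of the regions together with the Ex list, and the Quad and Wt lists did not. In all, 219 regions (57.3%) were called in Quad or Wt but not in Sed, against 14.4% of the Sed and Ex regions at large and 0.0877% of hypoacetylated EMRs. Since 15.4% of the members but 79.1% of all regions met the Sed list, this gap was largely fixed by the choice. Being uncalled in a list means only that the signal did not pass the peak caller there.

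Among the other muscles, EDL marked 22.5% of the regions, Dia 36.4% and Sol 36.9%, against 72.1%, 62.8% and 65.2% of all Sed and Ex regions. For hypoacetylated EMRs the order was the reverse, with 90.2% in the glycolytic EDL and 60.04% and 56.0% in the oxidative Dia and Sol. mTg quadriceps marked 31.2% of hyperacetylated EMRs, against 61.1% of all Sed and Ex regions. A total of 75 regions (19.6%) met no H3K27ac peak of any of the 6 sedentary wild-type lists, against 4.44% of all Sed and Ex regions. That share was 37.4%, against 8.09%, when peaks had to cover at least 50% of a region. It was 9.82% among the 112 members with an adjusted p under 0.01. The Sed list, which entered the choice of the regions, is among the 6. It met 15.4% of members but 79.1% of all Sed and Ex regions. The gap between 19.6% and 4.44% was therefore largely fixed by the choice. In those 112 members the H3K27ac shares were 68.7% in Quad, 71.4% in Wt, 53.6% in Dia and 57.1% in Sol, closer to those of all Sed and Ex regions, and 30.4% in Sed and 37.5% in EDL. Called in the Ex list alone among the 8 were 71 regions (18.6%). Among all Sed and Ex regions, 6.10% were called in the Sed list alone or in the Ex list alone. Called in all 8 were 11 regions (2.88%, against 34.5%). Both comparisons depend on the Sed list and so on the choice.

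Where the regions were called, their median rank lay below the middle of each list, closest to it in Wt. Ranked by level per kb, the regions matched by reciprocal overlap held a median percentile of 38.3 in the Ex list, 46.5 in Wt, 26.9 in Quad, 21.5 in Sol, 20.3 in Dia, 17.3 in Sed and 17.1 in EDL. The values behind the quadriceps ranks were a median log2 level per kb of 5.63 for 382 regions in Ex, against 5.89 for the whole list, 4.92 for 115 regions in Quad, against 5.62, and 4.87 for 131 regions in Wt, against 4.96. Input per kb was also lower for the matched regions than for the list, at 3.66 against 3.87 in Ex, 3.03 against 3.59 in Quad and 2.23 against 2.403 in Wt.

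**Figure D3:**
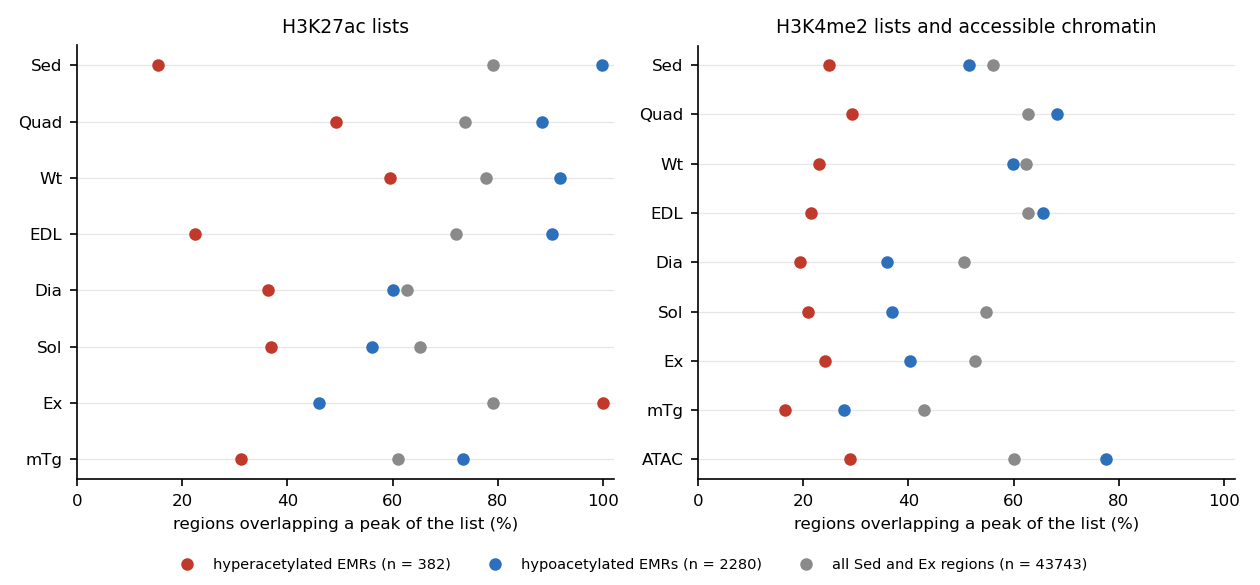
Share of regions (%) that meet at least 1 peak of each H3K27ac list (left) and of each H3K4me2 list and the ATAC list of sedentary quadriceps (right), for the 382 hyperacetylated EMRs, the 2280 hypoacetylated EMRs and all 43743 Sed and Ex regions. Hyperacetylated EMRs were the lowest of the 3 sets in each list except the Ex H3K27ac list they were drawn from, from 15.4% in Sed to 59.4% in Wt for H3K27ac.

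H3K4me2 covered fewer of the regions than of H3K27ac regions at large. The Quad H3K4me2 list met 112 of 382 regions (29.3%, against 62.7% of all Sed and Ex regions), Sed 95 (24.9%, against 56.1%), Ex 92 (24.1%, against 52.6%) and mTg 63 (16.5%, against 43.0%). EDL, Sol and Dia met 21.5%, 20.9% and 19.4%, against 62.7%, 54.7% and 50.5%. Shares in the Quad, Wt and EDL lists were 11.5%, 9.42% and 9.42% with equal numbers of top peaks, against 50.1%, 47.8% and 50.4%. No H3K4me2 peak of any group was met by 182 regions (47.6%), against 18.9% of the Sed and Ex regions at large and 14.6% of hypoacetylated EMRs. Between Sed and Ex, 41 regions (10.7%) were called in Ex only, 44 (11.5%) in Sed only and 51 (13.4%) in both, against 7.59%, 11.1% and 45.0% of all Sed and Ex regions. By class, the Quad H3K4me2 list met 22.9% of intergenic members, against 47.9%, and 34.0% of intronic members, against 61.5%. The regions were chosen for less H3K27ac in Sed than in Ex, and the part of that choice in the H3K4me2 shares was not tested.

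The level of H3K4me2 could be set side by side at 31 regions with a partner in both lists. Its median difference, Ex minus Sed, was 0.083, against 0.0055 for all 21618 shared regions and -0.087 for hypoacetylated EMRs. Without Sed replicate 2 the median was 0.014, without Sed replicate 1 it was 0.13 and without Ex replicate 1 it was 0.16. Both Ex libraries were higher in 8 of the 31 (25.8%), against 28.0% of shared regions, and both lower in 2 (6.45%), at Mir763 and Flywch2, against 26.9%. A change over 2-fold was found in 0 of the 31 in either direction, against 0.0185% of shared regions upward and 0.0786% downward.

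The largest H3K4me2 differences were at Anpep (chr7:79844134-79844931), a cell surface aminopeptidase, with centred levels per kb of -1.67 and -1.99 in Sed and -1.27 and -0.91 in Ex. Primpol, a primase-polymerase, had -0.75 and -0.91 in Sed and -0.34 and 0.09 in Ex. Scfd2 (chr5:74432710-74433863) had -0.55 and -0.48 in Sed and -0.04 and 0.04 in Ex. At these 3 regions the groups did not overlap. Nor did they at the Col8a1 promoter, with -0.70 and -0.88 in Sed and -0.47 and -0.23 in Ex. At the Wnt2 promoter, with -0.84 and -0.89 in Sed and -1.04 and -0.83 in Ex, they did.

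Accessible chromatin of sedentary quadriceps met 110 of 382 regions (28.8%), against 60.01% of the Sed and Ex regions at large and 77.5% of hypoacetylated EMRs. Among regions 1 to 3 kb wide the shares of hyperacetylated EMRs and of all regions were 28.1% and 59.8%. By class the shares were 31.4% and 54.6% of intergenic regions and 24.1% and 54.85% of intronic regions. The regions were chosen for less H3K27ac in Sed than in Ex, and no match by level was made. The part of that choice in these gaps was not tested. The strongest ATAC peak within a region had a median of 4.84 tags in hyperacetylated EMRs and 8.99 in all Sed and Ex regions that held one. Neither an ATAC peak nor an H3K4me2 peak was met by 143 regions (37.4%), against 13.8%. The ATAC list was called on pooled control libraries, so it gives no value per sample.

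The regions varied along these readouts. The 71 regions called in the Ex list alone had a median Ex level per kb of 5.04 and an ATAC peak in 18.3% of cases. The 197 regions called in 2 to 4 H3K27ac lists had 5.32 and 23.4%, and the 114 called in 5 to 8 lists had 5.85 and 44.7%. The Ex minus Sed difference in these sets was 0.52, 0.59 and 0.67, on a scale that shrinks weak regions. H3K4me2 was called in 45.1%, 45.7% and 68.4%. At the 9 promoters H3K4me2 was called in 88.9% of cases and an ATAC peak in 33.3%, against 45.3% and 31.4% of the 223 intergenic regions. Of all 5057 Sed and Ex promoters, 89.1% met an ATAC peak. The Quad H3K4me2 list met 88.9% of the 9 and 97.0% of the 5057.

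Binding of the Mediator subunit MED1, which bridges enhancers and RNA polymerase, and of NFAT, a factor turned on by calcium signaling, was listed for some of the sedentary muscles. These lists were taken as mm10 from their headers, whereas the labels name mm9 as well, so low overlaps are uncertain. MED1 peaks met 1 region (0.262%) each in Quad, EDL and Sol and 0 in Dia, against 3.65%, 0.898%, 4.31% and 3.26% of all Sed and Ex regions. NFAT peaks of Sol met 16 regions (4.19%, against 2.70%), among them those of Galnt15, Itgbl1 and Ccr2, and NFAT peaks of Quad met 1, at Nfkbiz.

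Muscle of mTg mice gave a contrast that did not enter the choice of the regions. Among the 1828 regions that the authors listed as hyperacetylated in mTg 1 met a hyperacetylated EMR, at Jam3, and among the 844 listed as hypoacetylated 10 regions of the set were met. The shares were 0.262% and 2.62%, against 2.19% and 1.67% of the Sed and Ex regions at large and 2.89% and 8.68% of hypoacetylated EMRs. These 10 were nearest to Slc8a1, Antxr2, Gin1, Ptgs2os2, 2810032G03Rik, Slc6a2, Fam198a, Saxo1, Nova1 and Gnpnat1. Between Wt and mTg, 132 regions were called in Wt alone and 24 in mTg alone. The mTg libraries held fewer tags than the Wt libraries (11.66 and 12.69 against 14.94 and 14.07 M), and all Sed and Ex regions were also called more often in Wt alone (23.4%) than in mTg alone (6.82%).

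At 38 regions called in both the Wt and the mTg list, H3K27ac was lower in mTg, with a median difference, mTg minus Wt, of -0.54, against -0.024 for all 17448 shared regions and -0.013 for hypoacetylated EMRs. It was below 0 in 35 of the 38. Both mTg libraries were lower in 22 (57.9%), against 32.5% of shared regions, and both higher in 0, against 30.9%. A difference over 2-fold was seen in 5 downward, against 2.73%, and in 0 upward, against 1.91%. The 38 regions were weak in Wt, with median centred levels of -0.88 and -1.18. Over all shared regions the mTg libraries had wider quartiles (-0.95 to 0.84 and -0.83 to 0.75) than the Wt libraries (-0.71 to 0.69 and -0.76 to 0.70). The scaling below sets these spreads equal, and no match by level was made. In a scaling chosen after the data were seen, with each library set to the same interquartile range, the median was -0.34, with 20 regions lower and 2 higher, against 34.4% and 28.8% of shared regions. Leaving out each library in turn gave medians from -0.75, without mTg replicate 2, to -0.37, without mTg replicate 1.

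The lowest value was at Ptgs2os2, with centred levels per kb of -0.03 and -0.42 in Wt and -1.54 and -1.87 in mTg, a difference of -1.48. Penk, which encodes the opioid precursor proenkephalin, had -1.10 and -1.03 in Wt and -2.35 and -2.21 in mTg. Antxr2 had -0.29 and -1.15 in Wt and -2.05 and -1.67 in mTg. Regions of Scfd2 and Thsd7a were the others over 2-fold lower, at -1.07 and -1.06.

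Near the other end, Spp1, the matrix protein osteopontin, had -1.53 and -1.65 in Wt and -1.48 and -1.67 in mTg, and the groups overlapped. The highest value was 0.62 at Pik3ap1, with -0.83 and -2.02 in Wt and -1.09 and -0.53 in mTg, where the Wt replicates were farther apart than the groups. Eps8l1, the region with the largest running difference, had -1.39 and -0.37 in Wt and -1.70 and -0.66 in mTg, with overlap between the groups.

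**Figure D4:**
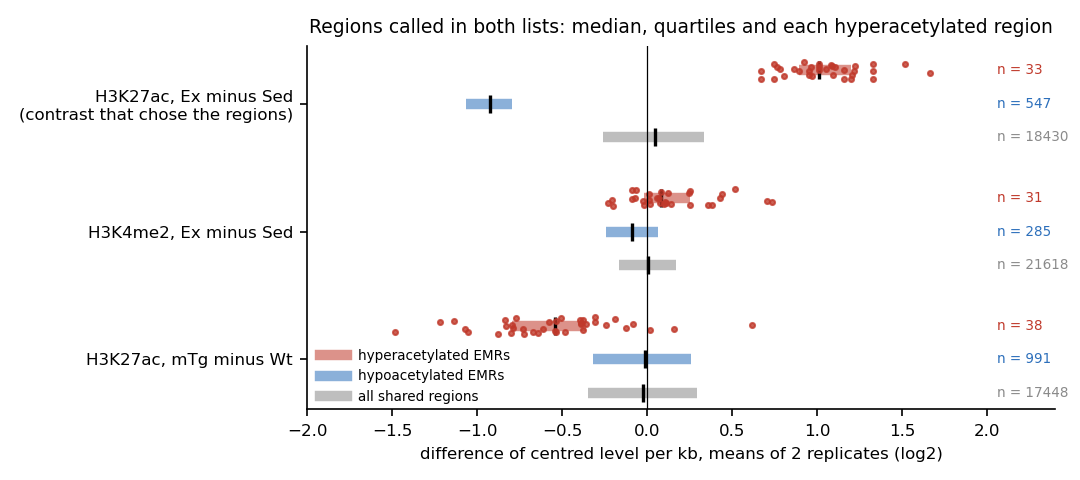
Difference of centred H3K27ac or H3K4me2 level per kb (log2, means of 2 replicates) at regions called in both lists of a contrast: bars are quartiles, ticks are medians, and red points are single hyperacetylated EMRs. The 38 hyperacetylated EMRs shared by Wt and mTg had a median of -0.54 and the 31 shared for H3K4me2 a median of 0.083, whereas the first contrast is the one that chose the regions.

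Sequence words were counted on both strands of GRCm38.p6 in whole regions and in the central 1 kb, which removes width. The words were AP-1 (TGACTCA), the cyclic AMP response element (CRE, TGACGTCA), an E-box (CAGCTG), a nuclear receptor half-site (AGGTCA), its longer forms NBRE (AAAGGTCA) and ERR (TCAAGGTCA), the NF1 half-site (TTGGCA) and palindrome, CCAAT, TEAD (GGAATG), a MAF half-site (TGCTGAC), the GC box (GGGCGG) and MEF2 by its consensus. NBRE and ERR words hold the half-site and count for it too.

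AP-1 was the word with the largest excess over all Sed and Ex regions, in percentage points of the central 1 kb. It was held by 114 of 382 regions (29.8%) in the central 1 kb, against 19.6% of the Sed and Ex regions at large and 19.1% of hypoacetylated EMRs. Over whole regions the shares were 39.3%, 33.4% and 45.7%, the wider hypoacetylated EMRs coming first, and the density was 0.297, 0.214 and 0.198 words per kb. Among regions 1 to 3 kb wide it was 38.4%, against 29.9%. The share within the set was 33.8% in the 71 regions called in Ex alone, 36.4% in the 110 regions with an ATAC peak and 27.2% in those without.

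Of the 22 regions named for the largest differences, for promoters or as the 5 largest differences among regions called in all 8 lists, 9 held an AP-1 word in the central 1 kb. Of those whose surroundings held no annotated exon, 7 are shown here, since AP-1 showed that excess, with 20 bases on each side on the plus strand and the word in capitals. They were chosen for display after the shares had been seen.

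Eps8l1, chr7:4461030-4461076: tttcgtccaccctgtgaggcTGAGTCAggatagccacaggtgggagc
Slc8a1, chr17:81404086-81404132: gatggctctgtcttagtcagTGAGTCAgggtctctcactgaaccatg
Itgbl1, chr14:123662559-123662605: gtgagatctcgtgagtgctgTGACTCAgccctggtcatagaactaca
Col5a1, chr2:27827795-27827841: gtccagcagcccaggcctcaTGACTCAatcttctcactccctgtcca
Ptchd3, chr11:121804268-121804314: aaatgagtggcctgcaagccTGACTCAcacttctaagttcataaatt
BC022687, chr12:112797106-112797152: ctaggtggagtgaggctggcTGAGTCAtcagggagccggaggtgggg
P2ry13, chr3:59211527-59211573: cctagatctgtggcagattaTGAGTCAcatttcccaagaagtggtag

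BC022687 held 5 words in its 8122 bp, and the word shown lies 86 bp from the centre. That of Slc8a1 lies 17 bp from the centre and is the one marked in the longer sequence above. The deposited annotation placed the centre of the Slc8a1 region in a SINE repeat. Its input per kb stood at percentile 70.4 of the Ex list.

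The other words were less common than among all regions, close to that share, or more common. The GC box, common in CpG-rich promoters, was held by 14.7% of central windows, against 33.5% of the Sed and Ex regions at large and 12.9% of hypoacetylated EMRs. MEF2, a word of muscle gene enhancers, was held by 2.88%, against 3.24% of all regions and 6.62% of hypoacetylated EMRs. ERR was held by 1.57%, against 2.68% and 4.04%, and the MAF half-site by 14.7%, against 16.7% and 20.3%. CRE was held by 0.262%, against 1.73% and 1.23%. E-box, nuclear receptor half-site, NBRE and TEAD shares were within 3 percentage points of those of all regions. NF1 half-sites (52.6%, against 44.5%) and CCAAT words (77.5%, against 69.7%) were more common.

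The regions were poor in G and C. The median GC content was 44.9%, against 48.4% of the Sed and Ex regions at large and 45.2% of hypoacetylated EMRs. The observed over expected CpG ratio exceeded 0.6 in 0.524% of the regions and in 14.8% of all. Word shares follow base composition, and its part in the AP-1 and GC box shares was not tested.

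**Figure D5:**
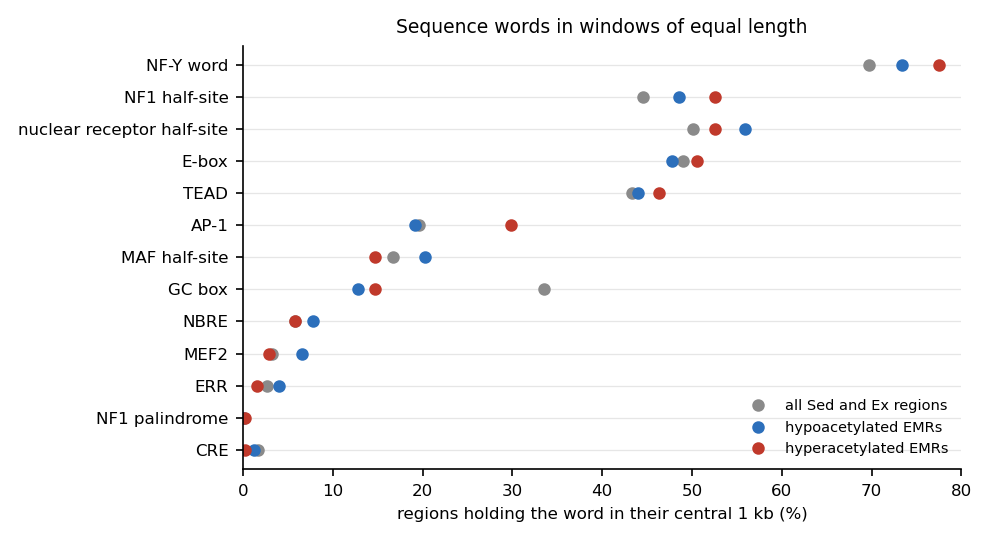
Share of regions (%) holding each word in their central 1 kb for the 382 hyperacetylated EMRs, the 2280 hypoacetylated EMRs and all 43743 Sed and Ex regions, the NF-Y word being CCAAT. AP-1 stood at 29.8% in hyperacetylated EMRs, above the 19.6% and 19.1% of the other sets, and the GC box at 14.7%, below the 33.5% of all regions.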

How the data were processed

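H3K27ac and H3K4me2 were measured by chromatin immunoprecipitation and sequencing in whole mouse muscle. The submitters' processing notes name Bowtie 1.2, HOMER, mm10 and mm9, and the histone lists were read as mm10 after their start site distances were checked against that build. For each group the authors called peaks over input with HOMER. Deposited levels in the peak lists and in the EMR lists are regularized log2 values for each library and its input, and the lists also hold peak scores, fold over input, p-values and ATAC tag signal per 10 M, all computed by the authors. Fold changes and p-values of the authors' own comparisons are not printed, and the adjusted p-value served only to define 1 alternative. Histone libraries held 6.406 to 24.2 M tags, per the file headers.

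The 382 members and all gene, marker and word lists were chosen with earlier results of these data known. Regions were intersected at 1 bp or more. Levels compared between lists were taken at regions with 50% reciprocal overlap, reduced to log2 per kb and centred on the median of all shared regions. A difference was called when the 2 libraries of a group both lay above or below those of the other. No p-value was computed, since the members were chosen on the measurement and 2 libraries against 2 cannot pass an exact test. Named regions were the 12 with the largest difference, the 5 with the highest Ex level, promoters, genes nearest to 3 or more regions, up to 6 regions for each of 13 gene lists, regions meeting mTg differential regions, and the 5 with the largest difference among those called in all 8 H3K27ac lists. Sequence and gene models came from GRCm38.p6. Python 3.11.15, pandas 2.3.3, numpy 2.4.6, pysam 0.24.0 and matplotlib 3.10.9 were used, and the counting steps were tested on simulated data. ATAC intervals and footprints of a build other than mm10 were not used. One of the named regions is not reported here.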

Additional observations from a re-analysis of the deposited data

How the results depend on the processing

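Values were judged to have moved when they left the 95% Wilson interval of the main share or, for levels, the spread between replicates. Of the recomputed values, 69 did not move, 56 moved and 1 reversed. No paired analysis was possible because the results come from no test. Leaving out each library in turn gave 0.48 to 0.71 for the H3K27ac difference at the 382 regions, 0.014 to 0.16 for the H3K4me2 difference at 31 regions and -0.75 to -0.37 for the mTg minus Wt difference at 38 regions. The H3K27ac difference from the peak lists was 1.01 at 33 regions. At 80% reciprocal overlap the H3K4me2 difference reversed to -0.057, over 4 regions. Scaling to equal interquartile ranges and keeping members from the Ex list alone were chosen after seeing the data.

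When a peak had to cover 50% of the region, H3K27ac shares were 30.9% in Quad, 8.64% in Sed, 36.6% in Wt, 15.4% in EDL, 28.0% in Dia, 25.4% in Sol and 14.4% in mTg, and H3K4me2 shares were 15.97% in Quad, 16.2% in Sed, 9.16% in Wt, 14.4% in EDL, 11.8% in Dia, 12.8% in Sol, 14.1% in Ex and 9.69% in mTg. Regions in no sedentary wild-type H3K27ac list then made up 37.4%. With peaks at least 4-fold over input, H3K27ac shares were 42.1% in Quad, 31.7% in Dia and 31.4% in Sol, and H3K4me2 shares 23.6% in Quad, 19.9% in Sed and 18.3% in Ex. With equal numbers of top peaks (33106 for H3K27ac, 27527 for H3K4me2), H3K27ac shares were 37.7% in Quad and 41.4% in Wt, and H3K4me2 shares 11.5% in Quad, 15.4% in Sed, 9.42% in Wt, 9.42% in EDL, 13.4% in Dia, 13.1% in Sol and 18.1% in Ex. Among the 112 members with adjusted p under 0.01, H3K27ac shares were 68.7% in Quad, 30.4% in Sed, 71.4% in Wt, 37.5% in EDL, 53.6% in Dia, 57.1% in Sol and 43.7% in mTg (all Sed and Ex regions 73.7%, 79.1%, 77.7%, 72.1%, 62.8%, 65.2% and 61.1%), H3K4me2 shares 31.2% in Sed and 26.8% in Sol, and 9.82% met no sedentary wild-type H3K27ac list.

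Restricting words to the central 1 kb gave 29.8% for AP-1, 0.262% for CRE, 50.5% for the E-box, 52.6% for the nuclear receptor half-site, 5.76% for NBRE, 1.57% for ERR, 52.6% for the NF1 half-site, 77.5% for CCAAT, 46.3% for TEAD, 14.7% for the MAF half-site, 14.7% for the GC box and 2.88% for MEF2. Among regions 1 to 3 kb wide CCAAT reached 89.4%. Within 100 kb of a TSS, 0 regions were nearest to muscle regulatory factors. The cause of these shifts was not tested beyond what each setting changes by construction. The mTg H3K4me2 libraries held 6.406 and 14.13 M tags, and the part of depth in the calls of that list was not tested.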
